A study of Mus musculus with 162 samples.

Results

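Interscapular brown fat (iBAT) was compared with 2 white fat depots, perigonadal (pgWAT) and posterior subcutaneous (psWAT), in a mouse series of 162 libraries from 9 organs. The members were chosen by the organ in the sample titles: 17 iBAT, 18 pgWAT and 16 psWAT libraries, 51 of the 162 in all. The iBAT library of 22 h replicate 1 and the psWAT libraries of 12 h replicate 3 and 22 h replicate 2 are left out. The study followed short-term fasting, in which food was withdrawn for 0, 2, 8, 12, 18 or 22 h, with 3 mice at each time and every mouse giving all organs. All groups are male C57BL/6J mice of 8 to 9 weeks, with no allele or agent other than the fast, killed at one time of day, and 0 h stands for mice fed at will. Each comparison below sets iBAT against a white depot within a fasting time, or averages those within-time differences over the 6 times. RNA from iBAT was purified with a column kit alone and RNA from both white depots with a phenol reagent and a lipid tissue kit, so depot and RNA kit cannot be told apart in any value below. The labels name whole depots, not sorted cells.

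Brown adipocytes hold many small lipid droplets and dense mitochondria, and their inner mitochondrial membrane carries uncoupling protein 1 (Ucp1), which lets protons flow back without making ATP and so turns fuel oxidation into heat. White adipocytes store triglyceride in a single large droplet, release fatty acids in fasting and secrete hormones such as leptin. Subcutaneous white fat can form beige adipocytes, which carry Ucp1 inside a white depot.

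Several libraries stand apart from their group. Over 18 B and T lymphocyte markers, the summed level was 4.12 to 29.5 CPM in iBAT (median 7.46), 23.6 to 48.1 in pgWAT (median 33.02) and 590.0 to 9628 in psWAT (median 5875). All 18 genes have counts in every depot. The most abundant of them in psWAT was Ighd, the heavy chain of immunoglobulin D, and 10 of the 16 psWAT libraries had a sum over 5000 CPM (counts scaled to the library total, with no other factor). Over 26 general adipocyte genes, led by Fabp4 in iBAT and pgWAT and by Cfd in psWAT, the summed level was 37698 to 60160.3 CPM in iBAT (median 49063), 12012 to 95675 in pgWAT (median 76700.3) and 1461 to 71018 in psWAT (median 16816). The 10 lymphocyte-rich libraries hold the lowest adipocyte sums of psWAT, and 22 h replicate 1 is lowest in the one and highest in the other. In bulk samples, fewer cells of a type and less RNA per cell cannot be told apart.

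Over 20 skeletal muscle markers the sum was 121.1 to 21174 CPM in iBAT (median 2033), 61.3 to 836 in pgWAT (median 80.7) and 138.4 to 60266 in psWAT (median 1526). The highest iBAT library for muscle was 12 h replicate 3, and 9 of the 17 iBAT libraries were over 2000 CPM, while psWAT 2 h replicate 2 was highest of all. In pgWAT, 12 markers of the male reproductive tract (11 of them in the count table) summed to 0.155 to 24934 CPM (median 14.04). The pgWAT libraries of 22 h replicate 2 (24934 CPM) and 18 h replicate 3 (23781 CPM) hold most of that signal, with Crisp1, a secreted epididymal protein, as the most abundant gene. In iBAT the same sum was at most 0.453 CPM, with 10 of the 11 genes at 0 in every library. The iBAT libraries of 22 h replicates 2 and 3 also stand apart, by a dependence on gene length that is described with the fasting times. Counts of genes are given with and without these libraries, and the part of such cells in the differences was not tested further.

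The labels were first checked against Ucp1 and against Cidea, a lipid droplet protein of brown adipocytes. Levels are in normalized CPM (nCPM), CPM scaled by the TMM factors of edgeR, which even out the bulk of genes between libraries. Ucp1 (chr8:83290352-83298452, plus strand, GRCm38) was at 3346 to 11273 normalized CPM in iBAT (median 5345), 0 to 0.292 in pgWAT (median 0) and 0.0831 to 588 in psWAT (median 2.17). Every iBAT library lay above every white fat library. In pgWAT, 9 Ucp1 counts were found over all libraries and 14 of 18 libraries had none. Pooled over libraries, the iBAT level of Ucp1 was 1.21e5-fold (95% counting interval 63827 to 2.65e5) that of pgWAT. Against psWAT it was 98.3-fold (95% counting interval 96.2 to 100.4). Single libraries weigh on both: the ratio was 2.43e5 without pgWAT 2 h replicate 1 and 192.98 without psWAT 0 h replicate 1. Such intervals hold the error of counting and not the spread between mice. The psWAT libraries with the most Ucp1 were 0 h replicates 1 and 2 and 22 h replicate 3, with 588, 383 and 99.7 nCPM. All 3 have a lymphocyte sum under 5000 CPM. In edgeR, Ucp1 was higher in iBAT than in the white fat average with an adjusted p of 7.58e-20. Its difference was positive at each of the 6 fasting times. With lane as a covariate the test no longer passed, though the log2 difference was 13.91. Ucp1 has groups at 0 in pgWAT, which leave no finite fold, so that fit cannot decide on lane. Lane here is the lane number in the library names, which name no sequencing run.

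Cidea was at 2182 to 5769 nCPM in iBAT (median 3036), 1.85 to 6.99 in pgWAT (median 4.04) and 1.33 to 612 in psWAT (median 24.5). Again no iBAT library overlapped a white fat library. Log2 fold changes (log2FC, ± standard error) compare iBAT with the white fat average unless a depot is named. Cidea had an edgeR log2FC of 7.64 ± 0.38 over white fat (adjusted p = 8.05e-20), 9.58 ± 0.50 over pgWAT and 5.70 ± 0.48 over psWAT. At single fasting times its edgeR log2FC ran from 6.57 to 8.93, and the joint test over times gave an adjusted p of 0.391. Both markers therefore follow the organ labels in every library used, and no white fat library carries them at an iBAT level. Adiponectin (Adipoq), an adipocyte hormone, was at 1071 to 3192 nCPM in iBAT (median 1482), 598 to 9258 in pgWAT (median 4438) and 27.4 to 2479.8 in psWAT (median 523), so that all 3 depots overlap. Leptin (Lep), the satiety hormone, was at 23.7 to 359 nCPM in iBAT (median 99.4), 79.9 to 2734 in pgWAT (median 1440.2) and 3.72 to 1006 in psWAT (median 78.8). Lep had an edgeR log2FC of −1.68 ± 0.35 over white fat (adjusted p = 5.56e-05), −3.48 ± 0.42 over pgWAT and 0.12 ± 0.38 over psWAT.

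**Figure D1:**
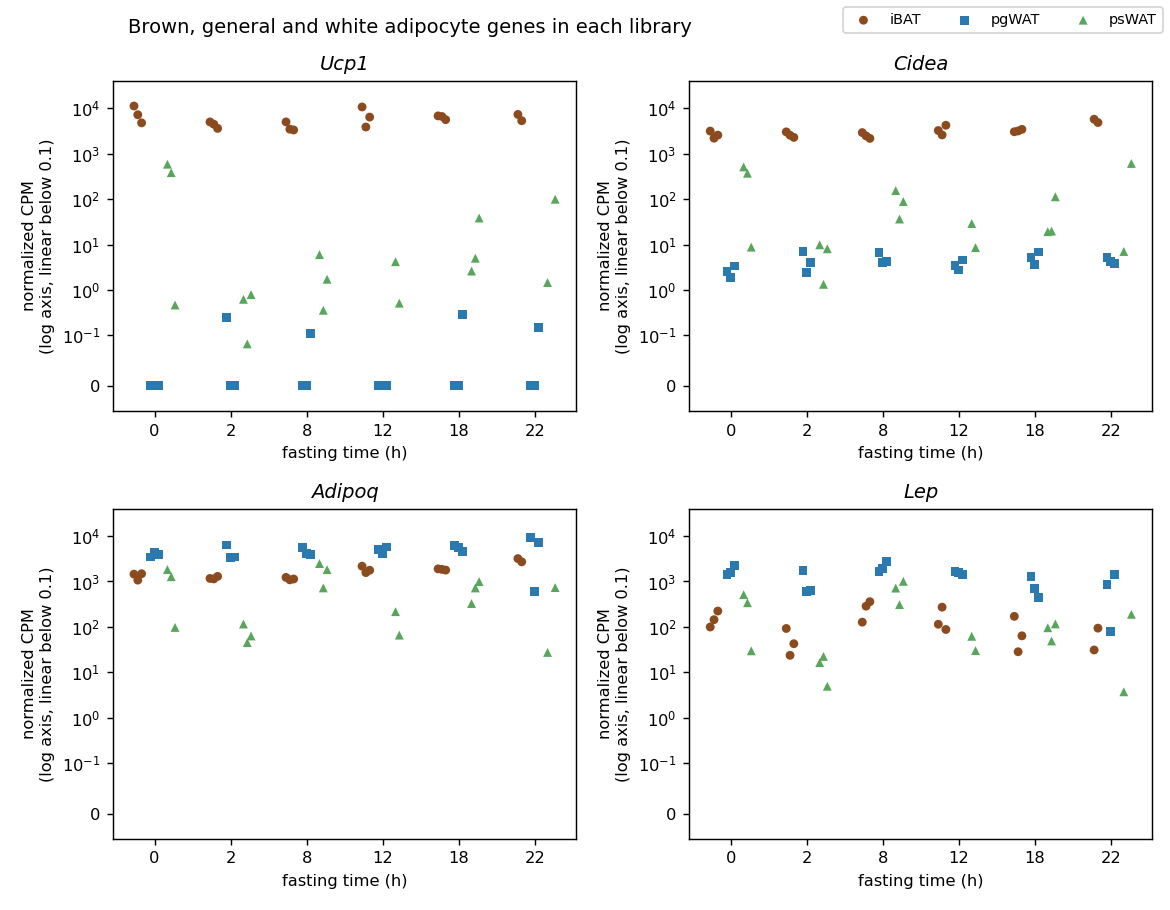
Normalized CPM of Ucp1, Cidea, Adipoq and Lep in each of the 51 libraries by fasting time and depot. The axis is logarithmic above 0.1 and linear below it.

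Across the transcriptome, 18738 genes passed the filter, which asks 3 or more libraries to have the CPM that 10 counts make at the median total. A gene is called here at an edgeR adjusted p under 0.05 with an absolute log2FC over 1. Against the white fat average the calls were 2950 genes higher and 4368 lower in iBAT, 15.7% and 23.3% of the genes tested. Against pgWAT alone they were 2410 genes higher and 4654 lower in iBAT (12.9% and 24.8%), and against psWAT alone 3967 genes higher and 5304 lower in iBAT (21.2% and 28.3%). The comparisons share the iBAT libraries, so they are set side by side and not overlapped. The median log2FC of all genes was −0.23 against white fat, −0.18 against pgWAT and −0.20 against psWAT (−0.21, −0.15 and −0.19 with genes that have a group of libraries at 0 set at a bound of 3 counts). In 771 genes (4.11%) every iBAT library lay above every white fat library, and in 329 (1.76%) below.

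Leaving out the 22 h libraries of all depots gave 3049 higher and 4217 lower. Without the 10 psWAT libraries high in lymphocyte markers and the 2 pgWAT libraries high in reproductive tract markers, the counts were 2649 higher and 3470 lower. Without the 9 iBAT libraries high in muscle markers they were 3149 and 4335. The last 2 choices of libraries were made after seeing the data, and each fit has its own filter. They also lose fasting times from the average. No psWAT library of 2 h or 12 h is left in the first of them, and no iBAT library of 8 h or 22 h in the second. With lane as a covariate they were 2979 and 3047, with 1912 and 2451 against pgWAT and 4161 and 3900 against psWAT, so more genes were lower than higher in iBAT in each of these but the last. At single fasting times the calls higher and lower were 2365 and 3199 at 0 h, 2852 and 3574 at 2 h, and 2374 and 3248 at 8 h. They were 3340 and 3271 at 12 h, 2611 and 4116 at 18 h, and 2858 and 4244 at 22 h. At 22 h iBAT has 2 libraries, and without its replicate 2 the number lower was 2685. With the lane covariate 2437 were lower at 18 h, and at 22 h 1501 were higher and 1651 lower.

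The genes furthest above white fat were named by a fixed rule: the 12 with the largest log2FC among called genes with a median of at least 10 normalized CPM in the higher tissue, the same sign at all times and against both depots. Beside Ucp1 and Cidea they are Kng2, Elovl3, Cpn2, Lgr6, Fabp3-ps1, Otop1, Fabp3, Cyp2b10, Aspg and Dio2, of 1697 genes that met the rule. For those with a group at 0 the log2FC that ranks them, here and among the genes furthest below, is a fitted value, so their rank is uncertain. Kng2, a kininogen from which kinins are cut, was at 70.97 to 158.2 nCPM in iBAT (median 123.1), 0.269 to 9.58 in pgWAT (median 1.09) and 0 to 2.73 in psWAT (median 0). Its pooled ratio (95% counting interval) was 89.1-fold (78.7 to 101.3) for pgWAT and 453-fold (331 to 637) for psWAT. Elovl3 makes very long chain fatty acids and is a known gene of brown fat. Its level was 25.02 to 328 nCPM in iBAT (median 100.96), 0 to 1.50 in pgWAT (median 0) and 0 to 46.99 in psWAT (median 0.168), above every pgWAT library but overlapping psWAT. Elovl3 had a pooled ratio of 1061-fold (687 to 1737) for pgWAT and 25.9-fold (23.9 to 28.1) for psWAT. Cpn2, the regulatory subunit of a plasma carboxypeptidase that trims kinins, was at 46.1 to 120.5 nCPM in iBAT (median 77.97), 0 to 7.03 in pgWAT (median 0) and 0 to 14.3 in psWAT (median 0.218). Its pooled ratio was 245-fold (190.96 to 319.8) for pgWAT and 49.99-fold (43.98 to 57.1) for psWAT. Neither Kng2 nor Cpn2 overlapped. Lgr6, a receptor of the R-spondin family, was at 22.6 to 82.04 nCPM in iBAT (median 49.3), 0 to 1.85 in pgWAT (median 0.119) and 0 to 5.35 in psWAT (median 0.213), also without overlap. Lgr6 had a pooled ratio of 257-fold (187.7 to 362) for pgWAT and 69.1-fold (57.5 to 83.9) for psWAT. Some of these ratios lean on 1 library. Without psWAT 0 h replicate 1 the psWAT ratio was 929 for Kng2, 55.8 for Elovl3 and 87.7 for Cpn2, and without psWAT 18 h replicate 3 106.2 for Lgr6. The pgWAT ratio was 2044 for Elovl3 and 976 for Cpn2 without pgWAT 18 h replicate 2, and 473 for Lgr6 without pgWAT 22 h replicate 2.

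Otop1 forms a proton channel of the plasma membrane. It was at 100.95 to 349 nCPM in iBAT (median 265), 0 to 0.848 in pgWAT (median 0.293) and 0 to 66.5 in psWAT (median 4.56), with an edgeR log2FC of 7.32 ± 0.35 over white fat (adjusted p = 4.71e-20), 9.50 ± 0.49 over pgWAT and 5.14 ± 0.42 over psWAT. No white fat library reached the iBAT range. Cyp2b10, a cytochrome P450, was at 18.5 to 165.04 nCPM in iBAT (median 45.7), 0 to 3.22 in pgWAT (median 1.23) and 0 to 1.20 in psWAT (median 0). Its edgeR log2FC was 7.12 ± 0.28 (adjusted p = 3.33e-23). Aspg, an asparaginase, was at 178.9 to 496 nCPM in iBAT (median 234.4), 0 to 10.9 in pgWAT (median 1.19) and 0.166 to 27.98 in psWAT (median 1.74), and its edgeR log2FC was 6.99 ± 0.30 (adjusted p = 1.46e-21). Both genes lay above every white fat library in all iBAT libraries. Dio2 activates thyroid hormone inside the cell and is induced by noradrenaline in brown fat. It was at 39.1 to 606 nCPM in iBAT (median 165.9), 0 to 10.4 in pgWAT (median 0.770) and 0.104 to 28.3 in psWAT (median 1.38), again without overlap, with an edgeR log2FC of 6.85 ± 0.40 over white fat (adjusted p = 1.25e-17), 7.45 ± 0.51 over pgWAT and 6.25 ± 0.53 over psWAT. Fabp3 binds fatty acids in oxidative tissue and Fabp3-ps1 is its processed pseudogene. Of the 100-letter stretches of Fabp3-ps1, 51.8% also occur in Fabp3, so reads may be split between them and their levels are uncertain. Fabp3 was at 70.7 to 275 nCPM in iBAT (median 102.6), 0 to 4.28 in pgWAT (median 0.0583) and 0 to 17.1 in psWAT (median 0.652), with a pooled ratio of 269-fold (215.97 to 340.4) for pgWAT and 34.5-fold (31.5 to 37.8) for psWAT (574 for pgWAT without its 22 h replicate 2). Fabp3-ps1 was at 391 to 973 nCPM in iBAT (median 622), 0 to 17.1 in pgWAT (median 0.621) and 0 to 61.05 in psWAT (median 2.88), and its edgeR log2FC was 7.79 ± 0.55 (adjusted p = 4.29e-15). Neither gene overlapped.

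The 12 genes furthest below white fat (of 1276 that met the rule) are Upk1b, Slpi, Col6a5, Igkc, Lef1, Ly6d, Tcf7, Slc38a1, Jchain, Cmah, Faah and Cd37. They divide by the white depot that is high. Upk1b, a uroplakin that is also on the mesothelium list, had 0 counts in all iBAT libraries, 16.5 to 52.7 nCPM in pgWAT (median 28.7) and 0 to 1.10 in psWAT (median 0.0439). Against a floor of 3 counts over all iBAT libraries it was at least 1371-fold lower in iBAT than in pgWAT and at least 9.69-fold lower than in psWAT. Its edgeR log2FC of −7.26 was not called without the lymphocyte- and reproductive-tract-rich libraries (−6.68) nor without psWAT 0 h replicate 1, 8 h replicate 2, 12 h replicate 1 or 22 h replicate 1 (−7.11 to −6.99). Nor was it called with lane as a covariate (−7.65). In the fits without those libraries a psWAT group is left at 0 while all of iBAT is at 0, a case that cannot pass. The lost calls therefore say nothing about those libraries. Slpi, an inhibitor of leukocyte proteases, was at 0 to 0.582 nCPM in iBAT (median 0.149), 23.5 to 95.2 in pgWAT (median 42.02) and 0.150 to 69.4 in psWAT (median 4.93). Its pooled white fat level over iBAT was 267-fold (178.01 to 422) for pgWAT and 96.2-fold (63.98 to 152.1) for psWAT. Col6a5, a collagen VI chain, was at 0 to 0.734 nCPM in iBAT (median 0.102), 18.2 to 341 in pgWAT (median 90.9) and 0.211 to 16.7 in psWAT (median 5.62), with an edgeR log2FC of −6.99 ± 0.56 over white fat (adjusted p = 4.91e-14), −9.12 ± 0.59 over pgWAT and −4.85 ± 0.60 over psWAT. All 3 lay below every pgWAT library and overlapped psWAT. Col6a5 was not called with lane as a covariate (−6.40). Igkc, the kappa light chain constant region of antibodies, was at 0.478 to 5.36 nCPM in iBAT (median 1.71), 5.64 to 104.6 in pgWAT (median 34.9) and 23.7 to 2396 in psWAT (median 712), below both depots in every library. Igkc had an edgeR log2FC of −6.53 ± 0.49 over white fat (adjusted p = 1.19e-14), −4.35 ± 0.45 over pgWAT and −8.71 ± 0.56 over psWAT.

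Lef1 and Tcf7, transcription factors of the lymphoid lineage, had higher medians in psWAT than in pgWAT. Lef1 was at 0 to 1.02 nCPM in iBAT (median 0), 0 to 31.6 in pgWAT (median 0.441) and 15.9 to 126.4 in psWAT (median 63.1), and its pooled white fat level over iBAT was 10.7-fold (7.26 to 16.5) for pgWAT and 334-fold (229.3 to 507) for psWAT. Tcf7 was at 0 to 2.48 nCPM in iBAT (median 1.02), 0.141 to 72.7 in pgWAT (median 3.54) and 21.9 to 348 in psWAT (median 190.1), with a pooled level over iBAT of 5.22-fold (4.41 to 6.22) for pgWAT and 185.9-fold (158.8 to 218.96) for psWAT. Without pgWAT 18 h replicate 3 the pgWAT level was 4.78-fold for Lef1 and 2.89-fold for Tcf7. Of both genes, every psWAT library held more than any iBAT library. Ly6d, a surface protein of B cells and epithelium, was at 0 to 2.51 nCPM in iBAT (median 0.276), 0.142 to 45.1 in pgWAT (median 1.76) and 12.3 to 208.2 in psWAT (median 150.1), with an edgeR log2FC of −5.98 ± 0.53 (adjusted p = 8.55e-13). Cd37, a leukocyte tetraspanin, was at 0 to 3.87 nCPM in iBAT (median 1.52), 3.02 to 24.02 in pgWAT (median 17.1) and 21.3 to 527 in psWAT (median 368), with one of −5.44 ± 0.34 (adjusted p = 8.00e-17) in edgeR. No iBAT library reached the psWAT range of either. Jchain, which joins antibody units, was at 0 to 2.08 nCPM in iBAT (median 0.690), 2.63 to 59.8 in pgWAT (median 12.1) and 3.45 to 345 in psWAT (median 63.3), with an edgeR log2FC of −5.48 ± 0.54 (adjusted p = 1.90e-11). Slc38a1, an amino acid transporter, was at 0 to 1.17 nCPM in iBAT (median 0.490), 3.85 to 33.3 in pgWAT (median 6.40) and 3.76 to 108.1 in psWAT (median 78.3), with an edgeR log2FC of −5.61 ± 0.38 (adjusted p = 3.54e-16). Both lay below every library of both white depots. Cmah, a sialic acid hydroxylase, was at 0 to 4.56 nCPM in iBAT (median 1.81), 3.60 to 20.1 in pgWAT (median 12.4) and 24.8 to 266 in psWAT (median 165.1), with a pooled white fat level over iBAT of 5.42-fold (4.81 to 6.12) for pgWAT and 74.5-fold (66.6 to 83.5) for psWAT. Faah, a fatty acid amide hydrolase, was at 0 to 1.25 nCPM in iBAT (median 0.413), 1.05 to 52.9 in pgWAT (median 4.70) and 7.81 to 77.7 in psWAT (median 49.7), with an edgeR log2FC of −5.45 ± 0.51 (adjusted p = 4.32e-12). Every psWAT library held more of both than any iBAT library. The part of lymphocytes and mesothelium in these 12 genes was not tested.

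Lists of genes were counted next. Counts against white fat are read beside the 15.7% of all genes called higher and the 23.3% called lower in iBAT. For counts against pgWAT the shares of all genes are 12.9% and 24.8%, and for psWAT 21.2% and 28.3%. Members that are picked out as the few that were not called, or were called the other way, were singled out after their values were seen. Of 36 genes of brown adipocyte identity and thermogenesis, 34 were tested (Bmp8b and Fgf21 were not). Of the 34, 32 were called higher and 1 lower in iBAT against white fat, with a median log2FC of 4.57. The median was 5.26 against pgWAT, with 31 higher and 2 lower, and 4.53 against psWAT, with 32 higher and 1 lower. With genes that have a group at 0 set at their bound the medians were 4.56, 5.26 and 4.47. In 20 of the 34 (against 4.11% of all genes) iBAT did not overlap white fat. Cox8b, a cytochrome oxidase subunit of brown fat and muscle, was at 667 to 6927 nCPM in iBAT (median 1315), 1.85 to 21.02 in pgWAT (median 10.5) and 4.65 to 309.8 in psWAT (median 33.2), without overlap. Cox8b had an edgeR log2FC of 5.91 ± 0.35 over white fat (adjusted p = 1.80e-17), 7.08 ± 0.46 over pgWAT and 4.74 ± 0.46 over psWAT.

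The member called lower was Gdf15, a stress hormone, at 0 to 0.436 nCPM in iBAT (median 0), 0 to 2.14 in pgWAT (median 0.339) and 0 to 1.10 in psWAT (median 0.588). It has 14 counts over all iBAT libraries, and its pooled level in pgWAT was 5.01-fold (95% counting interval 2.84 to 9.52) that of iBAT, so it rests on few reads. It was not called without psWAT 22 h replicate 1 (−2.76), a fit with groups at 0 in iBAT and in psWAT, which cannot pass. The member not called, Adrb3, is the adrenergic receptor of adipocytes through which noradrenaline acts. It was at 80.6 to 463 nCPM in iBAT (median 174.5), 53.5 to 1127 in pgWAT (median 674) and 8.50 to 646 in psWAT (median 89.3), the highest median of the 3 depots lying in pgWAT. Adrb3 had an edgeR log2FC of −0.49 ± 0.26 over white fat (adjusted p = 0.0880), −1.92 ± 0.30 over pgWAT and 0.95 ± 0.30 over psWAT.

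Most white adipocyte identity genes ran the other way against pgWAT. Of 20, 0 were called higher and 14 lower against the white fat average (median log2FC −2.63), 0 higher and 19 lower against pgWAT (−3.94) and 2 higher and 8 lower against psWAT (−0.68). At their bounds the medians were −2.63, −3.87 and −0.77. Without the libraries high in lymphocyte and reproductive tract markers the psWAT count was 0 higher and 13 lower. With lane as a covariate it was 2 higher and 4 lower of the 20, beside 4161 higher and 3900 lower of all 18738 genes. Resistin (Retn), an adipocyte hormone of mice, was at 41.6 to 313 nCPM in iBAT (median 117.8), 309 to 4642 in pgWAT (median 2315) and 9.43 to 1072 in psWAT (median 180.01). Its iBAT range met that of pgWAT only at one end and lay within that of psWAT. Retn had an edgeR log2FC of −2.59 ± 0.33 over white fat (adjusted p = 7.82e-09), −4.32 ± 0.39 over pgWAT and −0.85 ± 0.34 over psWAT. Hoxc9, a homeobox factor used to mark white fat, was at 0 to 0.127 nCPM in iBAT (median 0), 0.292 to 6.69 in pgWAT (median 4.16) and 0.531 to 12.9 in psWAT (median 3.25). It had 1 count over all iBAT libraries, and no iBAT library reached a white fat library. Its pooled level in pgWAT was 545-fold (95% counting interval 97.5 to 21560.0) that of iBAT, and in psWAT 552-fold (95% counting interval 98.8 to 21858). Wt1 and Tcf21, both markers of visceral fat precursors, have groups at 0 in iBAT and in psWAT, and the test over group means gives no usable result for them against the white fat average or psWAT; against pgWAT edgeR called both lower.

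Of 8 genes named for beige adipocytes, 0 were called higher and 7 lower in iBAT (median −2.43), with 1 higher and 6 lower against pgWAT and 0 higher and 6 lower against psWAT. The medians were −2.59 and −1.53 (−2.43, −2.22 and −1.53 at the bounds for the 3 comparisons). Lymphocytes also express a member, Tnfrsf9. Without the lymphocyte- and reproductive-tract-rich libraries 5 were lower, and with sequencing lane as a covariate 4. Slc7a10, an amino acid transporter of the adipocyte surface, was at 9.92 to 41.7 nCPM in iBAT (median 23.8), 42.8 to 448 in pgWAT (median 341) and 7.70 to 299.5 in psWAT (median 71.5), below every pgWAT library. Slc7a10 had an edgeR log2FC of −2.54 ± 0.28 over white fat (adjusted p = 2.06e-10), −3.66 ± 0.31 over pgWAT and −1.41 ± 0.29 over psWAT. Tmem26, a membrane protein, was at 0 to 0.873 nCPM in iBAT (median 0), 0 to 1.95 in pgWAT (median 0.463) and 2.104 to 10.9 in psWAT (median 7.33), with every psWAT library above every iBAT library. Its pooled white fat level over iBAT was 4.66-fold (2.78 to 8.31) for pgWAT and 62.3-fold (38.7 to 107.4) for psWAT.

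Genes that all adipocytes use were counted too. Of 26, 18 were called higher and 1 lower in iBAT (median 1.70) against white fat, 10 higher and 4 lower against pgWAT (0.45) and 23 higher and 0 lower against psWAT (2.57). No member has a group at 0. Without the libraries high in lymphocyte and reproductive tract markers the counts were 13 higher and 3 lower against white fat, and 16 and 1 against psWAT. Gpd1, the cytosolic glycerol phosphate dehydrogenase, was at 6375 to 22227 nCPM in iBAT (median 11053), 83.4 to 5431 in pgWAT (median 779) and 14.5 to 2652 in psWAT (median 359.8). Gpd1 had an edgeR log2FC of 4.16 ± 0.28 over white fat (adjusted p = 3.21e-16), 3.52 ± 0.33 over pgWAT and 4.81 ± 0.40 over psWAT, with no overlap between iBAT and either white depot. Plin5, which coats lipid droplets next to mitochondria, was at 245 to 600.0 nCPM in iBAT (median 376), 6.13 to 21.6 in pgWAT (median 16.02) and 0.398 to 74.1 in psWAT (median 5.62). Plin5 had an edgeR log2FC of 5.10 ± 0.28 (adjusted p = 2.69e-18), again without overlap. Adipsin (Cfd), a complement protease secreted by fat, was the one member called lower, at 1056 to 8288 nCPM in iBAT (median 2088), 1999 to 27609 in pgWAT (median 12297) and 147.4 to 8375 in psWAT (median 2364). Cfd had an edgeR log2FC of −1.12 ± 0.29 over white fat (adjusted p = 6.77e-04), −2.36 ± 0.33 over pgWAT and 0.13 ± 0.32 over psWAT. Cfd was not called with animals as a block (−0.86), without psWAT 22 h replicate 3 (−0.79), with lane as a covariate (−0.96) or with length offsets.

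**Figure D2:**
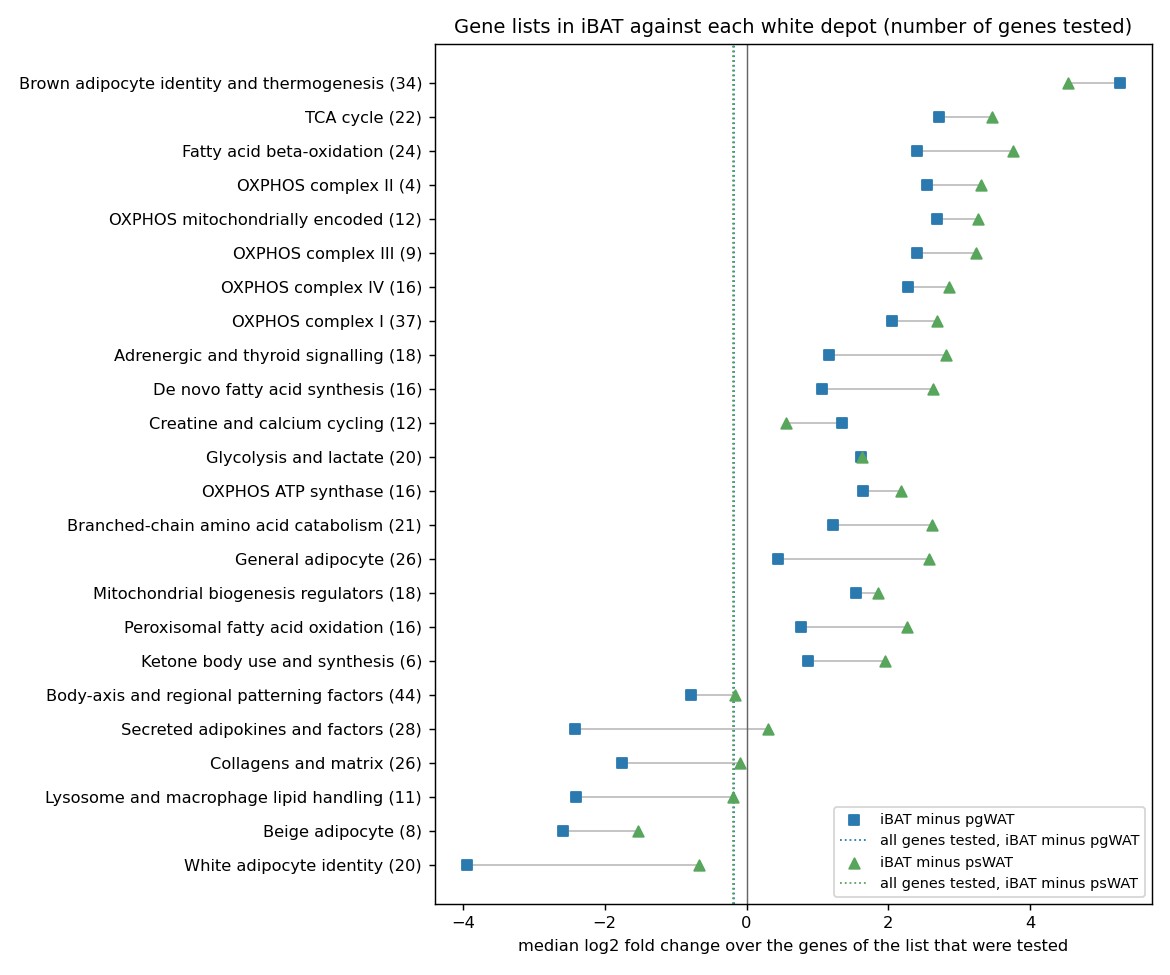
Median log2 fold change of each list of genes in iBAT against pgWAT and against psWAT, with the number of genes tested in each label. Dotted lines give the medians of all genes tested, −0.18 and −0.20.

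Body-axis and regional patterning factors were counted as a list. Of 47 listed, 44 were tested, and 10 were called higher and 12 lower in iBAT (22.7% and 27.3%, beside 15.7% and 23.3% of all genes; median −0.12). Against pgWAT 11 were called higher and 18 lower (median −0.78), and against psWAT 13 higher and 13 lower (median −0.16). Of the 44, 16 have a group at 0, and at their bounds the medians were −0.12, −0.73 and 0.05. Among those higher were Hoxa4, Hoxa5, Hoxc5, Tbx15, Tbx5, Zic1, Lhx8, Irx3 and Irx5. Lower were Hoxa10, Hoxb6, Hoxb7, Hoxc8, Hoxc9, Hoxc10, Hoxd3, Hoxd9, Hoxd10, Emx2, Nr2f1 and Prrx1. With lane as a covariate, the number lower was 5. Hoxa5 was at 24.7 to 61.4 nCPM in iBAT (median 37.7), 6.32 to 20.1 in pgWAT (median 14.1) and 1.15 to 7.96 in psWAT (median 3.77). Hoxa5 did not overlap either white depot and had an edgeR log2FC of 2.33 ± 0.11 (adjusted p = 4.04e-21).

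Hoxc8 was at 2.102 to 11.7 nCPM in iBAT (median 6.73), 14.7 to 125.8 in pgWAT (median 107.1) and 6.13 to 87.3 in psWAT (median 14.4), below every pgWAT library. Hoxc8 had an edgeR log2FC of −2.68 ± 0.24 over white fat (adjusted p = 1.42e-12), −3.83 ± 0.27 over pgWAT and −1.53 ± 0.25 over psWAT. Zic1, a zinc finger factor of the dorsal embryo that is known in brown fat, was at 0 to 19.5 nCPM in iBAT (median 13.4), 0 to 0.365 in pgWAT (median 0) and 0 to 10.3 in psWAT (median 0.128). Its 2 lowest iBAT values, 0 and 4.12, are those at 22 h, and its range overlaps those of both white depots. Pooled over libraries Zic1 was 187.98-fold (95% counting interval 109.7 to 354) the level of pgWAT and 20.2-fold (95% counting interval 16.5 to 25.1) that of psWAT (40.4 without psWAT 22 h replicate 3). It was not called without iBAT 22 h replicate 3 (4.98) or with lane as a covariate. The first of these fits has groups at 0 in iBAT and in white fat and cannot pass.

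The respiratory chain pumps protons across the inner mitochondrial membrane through complexes I, III and IV, and the ATP synthase returns them, the step that Ucp1 bypasses. In iBAT 36 of 37 nuclear genes of complex I were called higher and none lower, with a median log2FC of 2.35 (2.05 against pgWAT and 2.68 against psWAT). Complex II had 4 of 4 higher, with medians of 2.92, 2.54 and 3.31 in the same order. For complex III it was 9 of 9 (2.82, 2.40 and 3.24) and for complex IV 15 of 16 (2.61, 2.28 and 2.86). No gene of complexes I to IV was called lower. The ATP synthase had 10 higher and 2 lower of 16, with smaller medians of 1.83, 1.65 and 2.17. Of the 13 genes encoded in mitochondrial DNA 12 were tested and 11 were higher, with medians of 2.91, 2.68 and 3.27 (2.97, 2.70 and 3.27 at the bound). In the order complex I, II, III, IV and ATP synthase, 25, 4, 7, 12 and 8 genes had every iBAT library above every white fat library, against 4.11% of all genes. Under the other scalings that were tried (RLE and upper quartile) no gene of complexes I to IV was called lower either.

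Ndufv1, the subunit of complex I that takes electrons from NADH, was at 1079.7 to 2418 nCPM in iBAT (median 1492), 115.9 to 275 in pgWAT (median 196.9) and 43.7 to 263 in psWAT (median 82.8). Ndufv1 had an edgeR log2FC of 3.46 ± 0.14 over white fat (adjusted p = 1.42e-22), 2.98 ± 0.17 over pgWAT and 3.94 ± 0.20 over psWAT. Ndufa4, a subunit first assigned to complex I, was at 596 to 4491 nCPM in iBAT (median 1320.3), 218.8 to 665 in pgWAT (median 366) and 67.5 to 467 in psWAT (median 106.9), with an edgeR log2FC of 2.49 ± 0.18 (adjusted p = 5.90e-15). Ndufv1 did not overlap and Ndufa4 met pgWAT at one end. Sdhb, the iron-sulfur subunit of complex II, was at 815 to 3159 nCPM in iBAT (median 1455), 90.5 to 323 in pgWAT (median 215.03) and 46.4 to 313 in psWAT (median 87.3). Sdhb had an edgeR log2FC of 3.28 ± 0.16 (adjusted p = 1.89e-20), without overlap. Uqcr10, a small subunit of complex III, was at 379.6 to 3188 nCPM in iBAT (median 696), 96.8 to 299 in pgWAT (median 167.4) and 47.5 to 268 in psWAT (median 71.3). Uqcr10 had an edgeR log2FC of 2.64 ± 0.16 (adjusted p = 4.86e-17), without overlap. Uqcrc1, a core subunit of complex III, has only 375 counts over all iBAT libraries (202 of them in 18 h replicate 1) and 9 over pgWAT (6 in 2 h replicate 1). It was not called without iBAT 2 h replicate 1 or with lane as a covariate. Its groups at 0 leave no finite fold, so these lost calls do not decide on that library or on lane. Cox7a1, the cytochrome oxidase subunit of muscle and brown fat, had the largest difference in complex IV, at 362 to 2884 nCPM in iBAT (median 704), 1.95 to 8.26 in pgWAT (median 4.48) and 0.831 to 100.6 in psWAT (median 8.22). Cox7a1 had an edgeR log2FC of 6.48 ± 0.40 over white fat (adjusted p = 7.79e-17), 7.48 ± 0.52 over pgWAT and 5.49 ± 0.54 over psWAT, without overlap.

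Atp5b, the catalytic subunit of the ATP synthase, was at 6328 to 11360.0 nCPM in iBAT (median 8985), 809.9 to 2426 in pgWAT (median 1942) and 151.9 to 1945 in psWAT (median 636). Atp5b had an edgeR log2FC of 2.99 ± 0.16 (adjusted p = 6.24e-19) and did not overlap. Atp5g1, which encodes the membrane ring of the enzyme, was at 0.508 to 27.5 nCPM in iBAT (median 2.79), 9.47 to 55.7 in pgWAT (median 13.8) and 7.54 to 27.99 in psWAT (median 16.1). Atp5g1 had an edgeR log2FC of −1.67 ± 0.30 (adjusted p = 6.41e-06), with overlap. Atpif1, the inhibitor that binds the enzyme, was the other one called lower. The mitochondrial gene mt-Co1 was at 19768 to 212830.0 nCPM in iBAT (median 128340.0), 10692 to 27451 in pgWAT (median 16002) and 1964 to 42424 in psWAT (median 11454). mt-Co1 had an edgeR log2FC of 2.90 ± 0.19 (adjusted p = 1.66e-16), and of its 100-letter stretches 30.8% also occur in nuclear copies. mt-Co3 was at 198.1 to 695 nCPM in iBAT (median 295), 6.99 to 54.6 in pgWAT (median 23.3) and 5.97 to 107.2 in psWAT (median 20.2), without overlap and with an edgeR log2FC of 3.96 ± 0.23 (adjusted p = 3.89e-18), but 99.8% of its stretches occur in Gm28437, so most of its reads are not counted. Summed over all 13 mitochondrial genes the level was 46966 to 353997 CPM in iBAT (median 236248), 33221 to 68927 in pgWAT (median 49946) and 10355 to 120268 in psWAT (median 36049.8), the lowest iBAT library being 22 h replicate 2.

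Upstream of the chain, the citric acid cycle and the beta-oxidation of fatty acids supply its electrons. All 22 genes of the cycle and of the pyruvate dehydrogenase complex were called higher in iBAT (median 3.13, with 2.71 against pgWAT and 3.47 against psWAT), and in 21 of them iBAT and white fat did not overlap. Without the lymphocyte- and reproductive-tract-rich libraries 21 of the 22 were called. For beta-oxidation, 23 were called higher and 1 lower of 24 (medians 3.03, 2.41 and 3.75), and 19 did not overlap. Acaa2, the thiolase that ends each round in the matrix, was at 2469.9 to 5031 nCPM in iBAT (median 3932), 85.8 to 297 in pgWAT (median 194.7) and 37.8 to 493 in psWAT (median 76.02). Acaa2 had an edgeR log2FC of 4.58 ± 0.21 (adjusted p = 3.68e-21), without overlap. The exception, Cpt1a, is the liver form of the enzyme that admits fatty acids to mitochondria, and its muscle form Cpt1b is described with the paralogs. Cpt1a was at 3.35 to 38.2 nCPM in iBAT (median 26.4), 51.6 to 118.1 in pgWAT (median 74.7) and 23.2 to 78.6 in psWAT (median 37.8), below every pgWAT library. Cpt1a had an edgeR log2FC of −1.44 ± 0.10 over white fat (adjusted p = 2.73e-15), −1.91 ± 0.11 over pgWAT and −0.97 ± 0.11 over psWAT.

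Peroxisomes shorten very long fatty acids. Of 16 peroxisomal genes 10 were called higher and 1 lower (median 1.48), with 4 higher and 1 lower against pgWAT (0.76) and 13 higher and 0 lower against psWAT (2.26). Without the lymphocyte- and reproductive-tract-rich libraries 4 were higher and 1 lower. Abcd3, a peroxisomal transporter, was at 514 to 1010.0 nCPM in iBAT (median 799), 107.3 to 173.03 in pgWAT (median 145.7) and 24.4 to 225.4 in psWAT (median 55.4). Abcd3 had an edgeR log2FC of 2.98 ± 0.15 (adjusted p = 7.76e-20), without overlap. Catalase (Cat), which breaks down peroxide, was at 594 to 1092 nCPM in iBAT (median 885), 126.8 to 1184 in pgWAT (median 854) and 74.1 to 700.4 in psWAT (median 199.98). Its edgeR log2FC was 1.04 ± 0.18 over white fat (adjusted p = 2.76e-06), 0.14 ± 0.21 over pgWAT and 1.93 ± 0.23 over psWAT. Cat lost the call without the lymphocyte- and reproductive-tract-rich libraries (0.43), with RLE (0.95) or upper-quartile (0.96) factors, with additive terms (0.99), by DESeq2 (0.95) and without psWAT 22 h replicate 1 (0.98). Abcd2, a further transporter of very long fatty acids, was at 64.9 to 188.6 nCPM in iBAT (median 144.3), 80.6 to 1206 in pgWAT (median 858) and 8.63 to 430.4 in psWAT (median 93.9). Abcd2 had an edgeR log2FC of −1.01 ± 0.26 over white fat (adjusted p = 6.62e-04), −2.68 ± 0.30 over pgWAT and 0.66 ± 0.29 over psWAT, with opposite signs in the 2 depots. Abcd2 was not called with animals as a block (−0.75), with 7 other alternatives or without 30 of the 51 single libraries.

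Ketone bodies are made in liver and burned elsewhere through Oxct1 and Acat1. Of 6 genes 4 were called higher and 2 lower in iBAT (median 1.41, with 0.87 against pgWAT and 1.95 against psWAT). Acat1, the thiolase that splits acetoacetyl-CoA, was at 954 to 2174 nCPM in iBAT (median 1494), 115.6 to 475 in pgWAT (median 347) and 44.8 to 375 in psWAT (median 99.05). Acat1 had an edgeR log2FC of 2.94 ± 0.17 (adjusted p = 3.45e-18), without overlap. Bdh1, which converts between the ketone bodies, was at 0 to 4.46 nCPM in iBAT (median 0.413), 0.110 to 64.2 in pgWAT (median 1.30) and 2.86 to 19.1 in psWAT (median 11.3), with overlap. Bdh1 had an edgeR log2FC of −3.02 ± 0.53 (adjusted p = 3.49e-06). It was not called with lane as a covariate (−2.37), a fit in which 1 gene of this list was lower.

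Fuel synthesis and sugar use were counted as well. Of 16 genes of fatty acid synthesis 10 were called higher and 1 lower (medians 2.00, 1.06 and 2.62 against white fat, pgWAT and psWAT). Scd1, the desaturase that makes oleate, was at 18531 to 45629 nCPM in iBAT (median 32110.0), 1791 to 22938 in pgWAT (median 20228) and 424 to 22296 in psWAT (median 1929.7). Scd1 had an edgeR log2FC of 1.97 ± 0.25 over white fat (adjusted p = 9.57e-09), 0.75 ± 0.30 over pgWAT and 3.18 ± 0.35 over psWAT, with overlap. Fads1, a desaturase of polyunsaturated fatty acids, was at 12.7 to 22.5 nCPM in iBAT (median 17.8), 71.8 to 420.3 in pgWAT (median 105.1) and 22.6 to 66.5 in psWAT (median 30.1). Fads1 had an edgeR log2FC of −1.90 ± 0.14 over white fat (adjusted p = 4.67e-15), −2.82 ± 0.15 over pgWAT and −0.97 ± 0.15 over psWAT, and every iBAT library lay below every white fat library. Of 20 genes of glycolysis and lactate 16 were called higher and 1 lower (medians 1.88, 1.62 and 1.62). The lower one was Slc2a1, the basal glucose carrier, which is described with its paralog. Of 21 genes of branched-chain amino acid breakdown 19 were called higher and 0 lower (medians 1.73, 1.21 and 2.62). Bckdha, a subunit of the rate-setting dehydrogenase, was at 663 to 1373 nCPM in iBAT (median 878), 99.7 to 366 in pgWAT (median 214.4) and 28.6 to 241 in psWAT (median 61.6). Bckdha had an edgeR log2FC of 2.76 ± 0.16 (adjusted p = 6.36e-18), without overlap. Bcat2 and Ppm1k were the members not called.

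Noradrenaline drives brown fat through adrenergic receptors, cyclic AMP and thyroid hormone. Of 18 genes of these pathways 12 were called higher and 2 lower in iBAT (medians 2.06, 1.16 and 2.81). Prkar2b, a regulatory subunit of protein kinase A, was at 1268 to 2842 nCPM in iBAT (median 2303), 105.3 to 1265 in pgWAT (median 948) and 19.1 to 1061 in psWAT (median 182.5). Prkar2b had an edgeR log2FC of 2.34 ± 0.25 over white fat (adjusted p = 1.60e-10), 1.28 ± 0.30 over pgWAT and 3.40 ± 0.35 over psWAT, without overlap. Adra2a, a receptor that inhibits cyclic AMP, was at 0 to 1.19 nCPM in iBAT (median 0.204), 0.299 to 2.04 in pgWAT (median 1.24) and 1.04 to 12.7 in psWAT (median 4.33). Adra2a had an edgeR log2FC of −3.11 ± 0.34 (adjusted p = 1.36e-10), and the depots overlapped. It was not called with lane as a covariate (−2.22), a fit in which 1 gene of this list was lower. The other member called lower was Adra1b, an alpha receptor. Of 18 regulators of mitochondrial biogenesis 14 were called higher and 0 lower (medians 1.67, 1.55 and 1.85), and 8 did not overlap. Pprc1, Nrf1, Tfam and Ppard were not called.

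Creatine and calcium cycles also use energy without work, through enzymes that skeletal muscle shares. Of 12 genes tested 8 were called higher and 1 lower (medians 1.90, 1.35 and 0.56). Without the 9 iBAT libraries high in muscle markers the counts were 5 higher and 1 lower of 11, and with lane as a covariate 5 were higher. Ckm, the muscle creatine kinase, was at 7.50 to 2834 nCPM in iBAT (median 239.8), 0 to 128.2 in pgWAT (median 0.261) and 1.12 to 5071 in psWAT (median 126.5). Without those libraries Ckm was no longer called, with a log2FC of 1.37 against 3.69 ± 0.81 with them. With lane as a covariate it was not called either (4.73). Gamt, which makes creatine, was at 3.49 to 14.3 nCPM in iBAT (median 6.11), 21.7 to 133.2 in pgWAT (median 31.4) and 1.85 to 20.1 in psWAT (median 6.14), and below every pgWAT library. Gamt had an edgeR log2FC of −1.21 ± 0.20 over white fat (adjusted p = 1.62e-06), −2.56 ± 0.23 over pgWAT and 0.13 ± 0.23 over psWAT. All 20 muscle markers were called higher in iBAT than in white fat (20 against pgWAT, 3 against psWAT), and 13 with lane as a covariate. Without the high-muscle iBAT libraries 5 were called higher, and against psWAT none was higher and 10 were lower. Those libraries were picked by the sum of the same 20 markers, and muscle-rich psWAT libraries stayed in. A fall in these last counts was therefore set by the choice. The part of muscle RNA in the creatine and calcium genes was otherwise not tested.

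Secreted factors, matrix and lysosomal genes were counted next. Of 28 secreted factors tested (of 32) 7 were called higher and 14 lower against white fat. They were 6 higher and 17 lower against pgWAT and 9 higher and 6 lower against psWAT (medians −0.94, −2.42 and 0.30). The share lower against psWAT was 21.4%, beside 28.3% of all genes. Without the lymphocyte- and reproductive-tract-rich libraries 6 were higher and 10 lower against psWAT, of 27 tested. With lane as a covariate 11 were higher and 3 lower against psWAT, and 9 lower against white fat. Nampt, an enzyme of NAD synthesis that is also secreted, was at 568 to 1585 nCPM in iBAT (median 958), 127.1 to 373 in pgWAT (median 281) and 71.2 to 367 in psWAT (median 122.3), without overlap. Nampt had an edgeR log2FC of 2.24 ± 0.14 over white fat (adjusted p = 7.86e-17), 1.80 ± 0.17 over pgWAT and 2.69 ± 0.19 over psWAT. Lipocalin 2 (Lcn2), an acute phase protein, was at 0 to 1.14 nCPM in iBAT (median 0.532), 4.30 to 1758 in pgWAT (median 26.4) and 0.102 to 62.8 in psWAT (median 1.48). Lcn2 had an edgeR log2FC of −4.59 ± 1.46 over white fat (adjusted p = 0.00523), −7.01 ± 0.84 over pgWAT and −2.18 ± 1.29 over psWAT. It was not called without psWAT 12 h replicate 2 (−4.53) or 22 h replicate 1 (−4.44) or with lane as a covariate (−3.92). Of 26 collagens and matrix genes 0 were called higher and 12 lower (medians −0.95, −1.76 and −0.09), with 1 higher and 21 lower against pgWAT and 2 higher and 3 lower against psWAT. The psWAT counts are 7.69% and 11.5% of the list, beside 21.2% and 28.3% of all genes. Without the lymphocyte- and reproductive-tract-rich libraries 20 were lower against white fat and 14 against psWAT. Dermatopontin (Dpt), a matrix protein, was at 45.2 to 140.9 nCPM in iBAT (median 88.9), 159.9 to 925 in pgWAT (median 549) and 33.3 to 1171 in psWAT (median 159.9). Dpt had an edgeR log2FC of −1.80 ± 0.23 (adjusted p = 1.18e-08). Dpt lay below every pgWAT library and overlapped psWAT.

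Of 11 genes of lysosomes and macrophage lipid handling 1 was called higher and 7 lower, 1 higher and 7 lower against pgWAT and 4 higher and 5 lower against psWAT (medians −1.18, −2.40 and −0.19). Without the lymphocyte- and reproductive-tract-rich libraries 1 was higher against psWAT. The one higher against white fat was Lipa, the acid lipase of lysosomes, at 96.8 to 261 nCPM in iBAT (median 190.4), 19.5 to 98.6 in pgWAT (median 66.3) and 20.3 to 69.004 in psWAT (median 42.9). Lipa had an edgeR log2FC of 1.87 ± 0.11 (adjusted p = 1.07e-17), and its iBAT range met only the top of pgWAT. Apoe, which carries lipid out of macrophages, was at 759 to 2651 nCPM in iBAT (median 977), 1224 to 7068 in pgWAT (median 4130.3) and 829.9 to 1983 in psWAT (median 1522), with an edgeR log2FC of −1.01 ± 0.13 (adjusted p = 1.52e-08) and overlap. Apoe was not called with animals as a block (−0.87), with length offsets (−0.86), with all 54 libraries or without 27 of the 51 single libraries. Lgals3, a lectin of macrophages, was at 4.07 to 17.6 nCPM in iBAT (median 5.32), 32.1 to 289 in pgWAT (median 141.1) and 35.3 to 156.9 in psWAT (median 69.2), with every iBAT library below every white fat library. Lgals3 had an edgeR log2FC of −3.85 ± 0.20 (adjusted p = 1.84e-19). Markers of macrophages were lower too: 11 of 14 were lower in iBAT, and their summed level was 57.7 to 411 CPM in iBAT (median 196.5), 696 to 2737 in pgWAT (median 2238) and 806 to 3162 in psWAT (median 1571), with Lyz2 as the most abundant gene in each depot. None of the 14 was at 0 in any depot. The part of macrophages in the lysosomal genes was not tested.

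Other lists hold markers of cell types. All 18 lymphocyte markers were lower in iBAT (12 against pgWAT and 18 against psWAT), and all 18 were lower again without the lymphocyte- and reproductive-tract-rich libraries. Of 12 endothelial markers 8 were higher and none lower, with median sums of 1043, 709 and 654 CPM in iBAT, pgWAT and psWAT. Pecam1 was their most abundant gene in both white depots and Cdh5 in iBAT. Of 11 markers of preadipocytes and fibroblasts tested 6 were lower and none higher, with median sums of 499, 3355 and 1238 CPM and Dcn as the most abundant gene. Mesothelium markers summed to 2.34 to 29.03 CPM in iBAT (median 5.66), 208.7 to 1057 in pgWAT (median 389.9) and 1.84 to 352 in psWAT (median 9.36), with Upk3b leading in pgWAT. Of these 11 genes 4 were lower against the white fat average and all 11 against pgWAT. With additive terms 10 were lower against white fat, and with lane as a covariate 2. Bnc1 and Upk1b of this list were at 0 in all iBAT libraries. All 10 reproductive tract genes tested have a group at 0 in every comparison, 4 were lower against pgWAT, and with additive terms 3 were lower against white fat.

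Of 7 epithelial markers tested 3 were lower (none with lane as a covariate, 7 with additive terms), with median sums of 0.775, 28.6 and 10.1 CPM. Skin markers gave 1 higher (Krt10) and 3 lower (Dsp, Sfn and Trp63) of 7 tested, with median sums of 7.70, 20.4 and 44.96 CPM. With additive terms 6 skin markers were lower, and without the 22 h libraries none was higher. Nerve and Schwann cell markers gave 5 higher (S100b, Sox10, Cdh19 and Gfra3 among them) and 0 lower of 10 tested. Against pgWAT 7 were higher and 1 lower, and against psWAT 3 higher and 1 lower. Without the lymphocyte- and reproductive-tract-rich libraries 2 were higher and 4 lower against psWAT. The median sums were 246, 322 and 303 CPM, without the TMM factors that the calls use. Of 6 erythroid markers Alas2 was higher, with median sums of 171.96, 508 and 144.8 CPM and Hbb-bs as the most abundant gene. No erythroid marker was called against white fat with RLE or upper-quartile factors, with additive terms or without the lymphocyte- and reproductive-tract-rich libraries. Of 3 cerebellar markers tested 2 were higher, Zic1 and Car8, of which Zic1 is also on the brown and patterning lists. Pancreatic acinar markers were called higher for 9 of 10 at low levels, with sums of 0 to 82.4 CPM in iBAT (median 8.14), 0 to 1.61 in pgWAT (median 0.534) and 0 to 529 in psWAT (median 0.304). All 10 have a group at 0. At their bounds the median against psWAT was −0.61, against 3.66 as fitted. With lane as a covariate 3 were higher, and without the high-muscle iBAT libraries 3 of 5 tested. Genes at 0 in all iBAT libraries were 4 epithelial (Elf5, Wap, Csn2 and Csn3), 3 skin (Krt1, Krt25 and Krt71) and 3 cerebellar ones (Gabra6, Neurod1 and Grm4). The part of any of these cells in the depot differences was not tested.

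**Figure D3:**
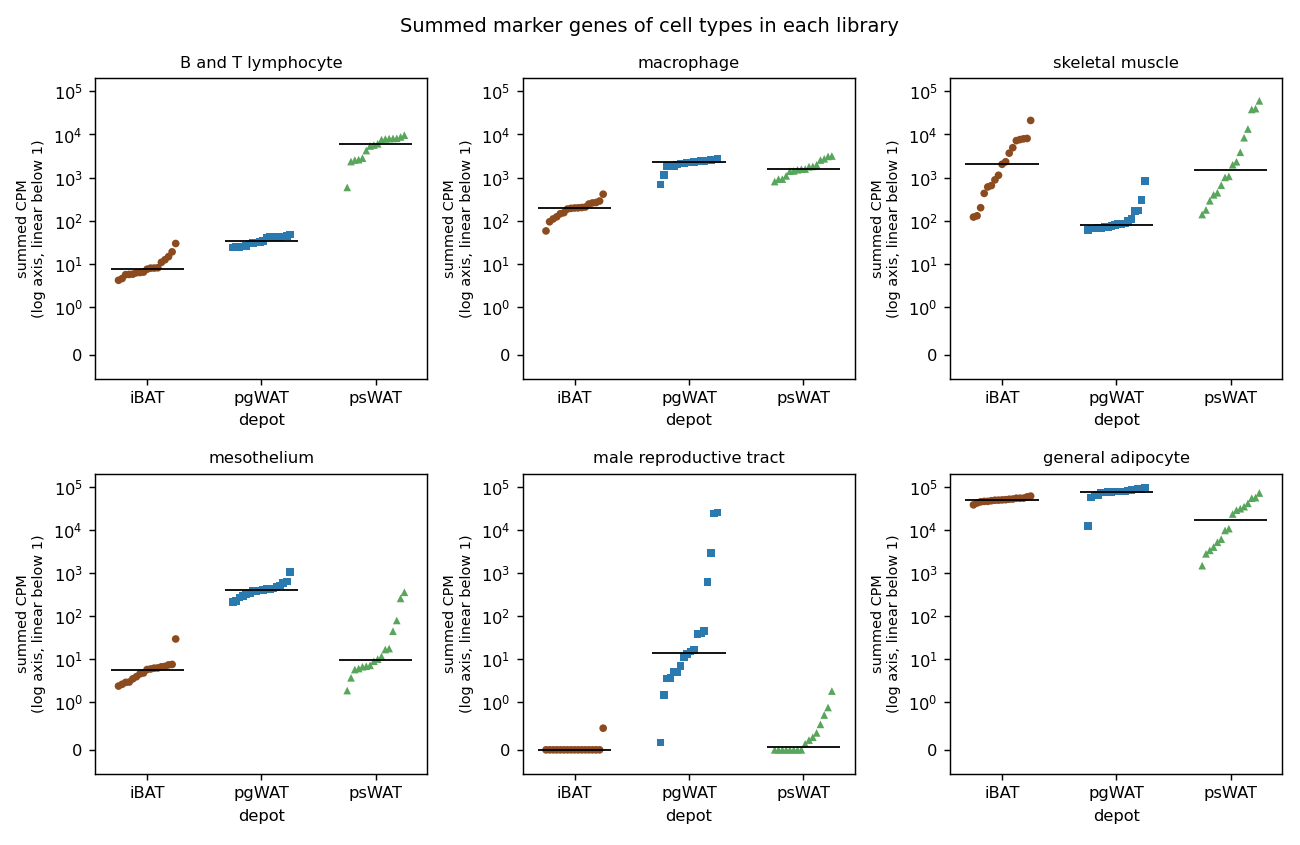
Summed CPM of 6 marker lists in each library of the 3 depots. Black lines give the median of each depot.

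Paralogs, genes of one family with alternative products, were counted as a list. Levels of different genes are compared here only per length, as the median nCPM per kilobase of exon, in the order iBAT, pgWAT and psWAT. Of 36 paralogs 29 were called higher and 4 lower in iBAT (medians 2.68, 2.27 and 2.89). Among uncoupling proteins Ucp1 was at 3267, 0 and 1.33 per kilobase. Ucp3, the form of muscle and brown fat, was at 63.7, 9.81 and 5.60. Ucp2, which immune cells express, was at 7.13, 21.3 and 48.7. The leading form per length is Ucp1 in iBAT and Ucp2 in both white depots. Ucp2 ranged over 34.4 to 78.8 nCPM in iBAT (median 49.8), 102.3 to 301 in pgWAT (median 149.1) and 103.1 to 473 in psWAT (median 340.1), without overlap. Ucp2 had an edgeR log2FC of −2.09 ± 0.14 over white fat (adjusted p = 4.65e-16), −1.60 ± 0.15 over pgWAT and −2.57 ± 0.16 over psWAT. Ucp3 had an edgeR log2FC of 2.82 ± 0.27 (adjusted p = 1.17e-11), with overlap.

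Cytochrome oxidase has tissue-specific subunits. In the same order Cox7a1 was at 1317, 8.37 and 15.4 nCPM per kilobase, and its widely expressed partner Cox7a2 at 854, 228.9 and 76.2. Cox8b was at 3652, 29.3 and 92.3 and Cox8a at 2332, 929.5 and 274 on the same scale. The restricted form is thus the more abundant per length in iBAT for both pairs, and the less abundant in both white depots. Cox7a2 was itself higher in iBAT than in every white fat library, with an edgeR log2FC of 2.48 ± 0.16 (adjusted p = 6.59e-17). Cox8a overlapped pgWAT, with an edgeR log2FC of 2.13 ± 0.15 (adjusted p = 8.76e-16). Cox6a2, the muscle form, was at 16.2, 0.233 and 6.63 per kilobase, and Cox6a1 at 2634, 424 and 155.02. Without the high-muscle iBAT libraries Cox6a2 was not called, with a log2FC of 0.94 against 3.75 ± 0.65 with them. With lane as a covariate it was not called either (3.41). Cox4i1 was at 1240.4, 377 and 188.9 and Cox4i2, the lung form, at 6.67, 3.39 and 4.45 per kilobase.

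For entry of fatty acids, Cpt1b was at 5.86, 0.0224 and 0.0235 and Cpt1a at 3.46, 9.78 and 4.94 nCPM per kilobase. Of the exons of Cpt1b 81.4% lie under Gm44502 on the same strand, where the counting drops reads, so its level is a lower bound. Cpt1b had a pooled ratio of 182.7-fold (116.7 to 304) for pgWAT and 59.4-fold (44.4 to 81.3) for psWAT. Among fatty acid binding proteins Fabp4 was at 2721, 3513 and 523, Fabp3 at 124.7, 0.0708 and 0.793 and Fabp5 at 15.8, 21.96 and 11.02 on the per-kilobase scale. Fabp4, the adipocyte form, was not called, with an edgeR log2FC of 0.98 ± 0.28 over white fat (adjusted p = 0.00177), −0.23 ± 0.32 over pgWAT and 2.19 ± 0.36 over psWAT. With animals as a block it was called, at 1.26, as it was with length offsets (1.12), lane as a covariate (1.42), in lane L005 only (1.49), without the high-muscle iBAT libraries (1.23) and without 26 of the 51 single libraries. Fabp5, the epidermal form, was not called either, with an edgeR log2FC of −0.05 ± 0.16 over white fat (adjusted p = 0.842), −0.47 ± 0.18 over pgWAT and 0.37 ± 0.19 over psWAT. The sign of Fabp5 turns under several alternatives. The elongase Elovl6, which makes stearate, was at 152.01, 3.71 and 3.86 per kilobase and Elovl3 at 51.1, 0 and 0.0853. Elovl6 had an edgeR log2FC of 4.71 ± 0.29 (adjusted p = 2.94e-17), without overlap.

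The coactivators Ppargc1a and Ppargc1b drive mitochondrial genes together with estrogen-related receptors. Ppargc1a was at 7.71, 0.986 and 0.806 and Ppargc1b at 17.6, 0.577 and 1.09 nCPM per kilobase. Ppargc1a ranged over 16.3 to 93.3 nCPM in iBAT (median 50.9), 2.92 to 21.1 in pgWAT (median 6.50) and 1.32 to 18.5 in psWAT (median 5.31), with overlap at the ends. Ppargc1a had an edgeR log2FC of 2.95 ± 0.18 over white fat (adjusted p = 2.09e-17), 2.73 ± 0.22 over pgWAT and 3.16 ± 0.24 over psWAT. Ppargc1b was at 24.7 to 98.2 nCPM in iBAT (median 70.3), 0.583 to 6.40 in pgWAT (median 2.30) and 2.19 to 11.6 in psWAT (median 4.37), without overlap. Ppargc1b had an edgeR log2FC of 4.13 ± 0.16 over white fat (adjusted p = 2.00e-23), 4.60 ± 0.20 over pgWAT and 3.65 ± 0.21 over psWAT, larger than that of Ppargc1a in each comparison.

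Pyruvate dehydrogenase kinases brake glucose oxidation. Pdk4, the form induced by fasting, was at 406, 8.05 and 14.9 nCPM per kilobase. Pdk2 was at 148.3, 24.9 and 14.4, Pdk1 at 25.7, 6.09 and 15.2 and Pdk3 at 0.981, 7.18 and 5.36 on that scale. Pdk4 leads in iBAT, Pdk2 in pgWAT and Pdk1 in psWAT, though Pdk4, Pdk1 and Pdk2 are close in psWAT. Pdk4 ranged over 440.2 to 2945 nCPM in iBAT (median 1426), 14.1 to 51.9 in pgWAT (median 28.3) and 6.16 to 345 in psWAT (median 52.5). Pdk4 had an edgeR log2FC of 5.00 ± 0.34 over white fat (adjusted p = 1.10e-15), 5.72 ± 0.44 over pgWAT and 4.28 ± 0.45 over psWAT, without overlap. Pdk3 had an edgeR log2FC of −2.70 ± 0.20 (adjusted p = 6.00e-15). Of lactate dehydrogenase, the heart form Ldhb was at 429.9, 53.8 and 13.8 and the muscle form Ldha at 269, 156.9 and 113.9 per kilobase. Ldhb had an edgeR log2FC of 3.71 ± 0.21 (adjusted p = 2.14e-18). Ldha had an edgeR log2FC of 1.11 ± 0.17 (adjusted p = 1.93e-07), and was not called without the lymphocyte- and reproductive-tract-rich libraries (0.70), without the 22 h libraries or without iBAT lanes L001 to L004 (0.97).

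Of glucose carriers, the insulin-responsive Slc2a4 was at 168.3, 60.5 and 22.2 and Slc2a1 at 2.28, 3.44 and 7.28 nCPM per kilobase. Slc2a4 had an edgeR log2FC of 2.19 ± 0.24 (adjusted p = 2.57e-10), without overlap. Slc2a1 had an edgeR log2FC of −1.07 ± 0.14 (adjusted p = 8.50e-09), and was not called without the lymphocyte- and reproductive-tract-rich libraries (−0.79), with length offsets (−0.92), without the 22 h libraries (−0.93) or without iBAT 22 h replicate 2 (−0.99). The glycerol phosphate shuttle carries cytosolic electrons into the chain through Gpd1 and the mitochondrial Gpd2. Per kilobase Gpd1 was at 3733, 263 and 121.5 and Gpd2 at 182.7, 7.70 and 7.60. Gpd2 had an edgeR log2FC of 4.16 ± 0.17 (adjusted p = 1.90e-22), without overlap. Brain creatine kinase (Ckb) was at 8.37, 23.9 and 8.11 and the mitochondrial Ckmt2 at 17.3, 0 and 2.74 per kilobase.

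**Figure D4:**
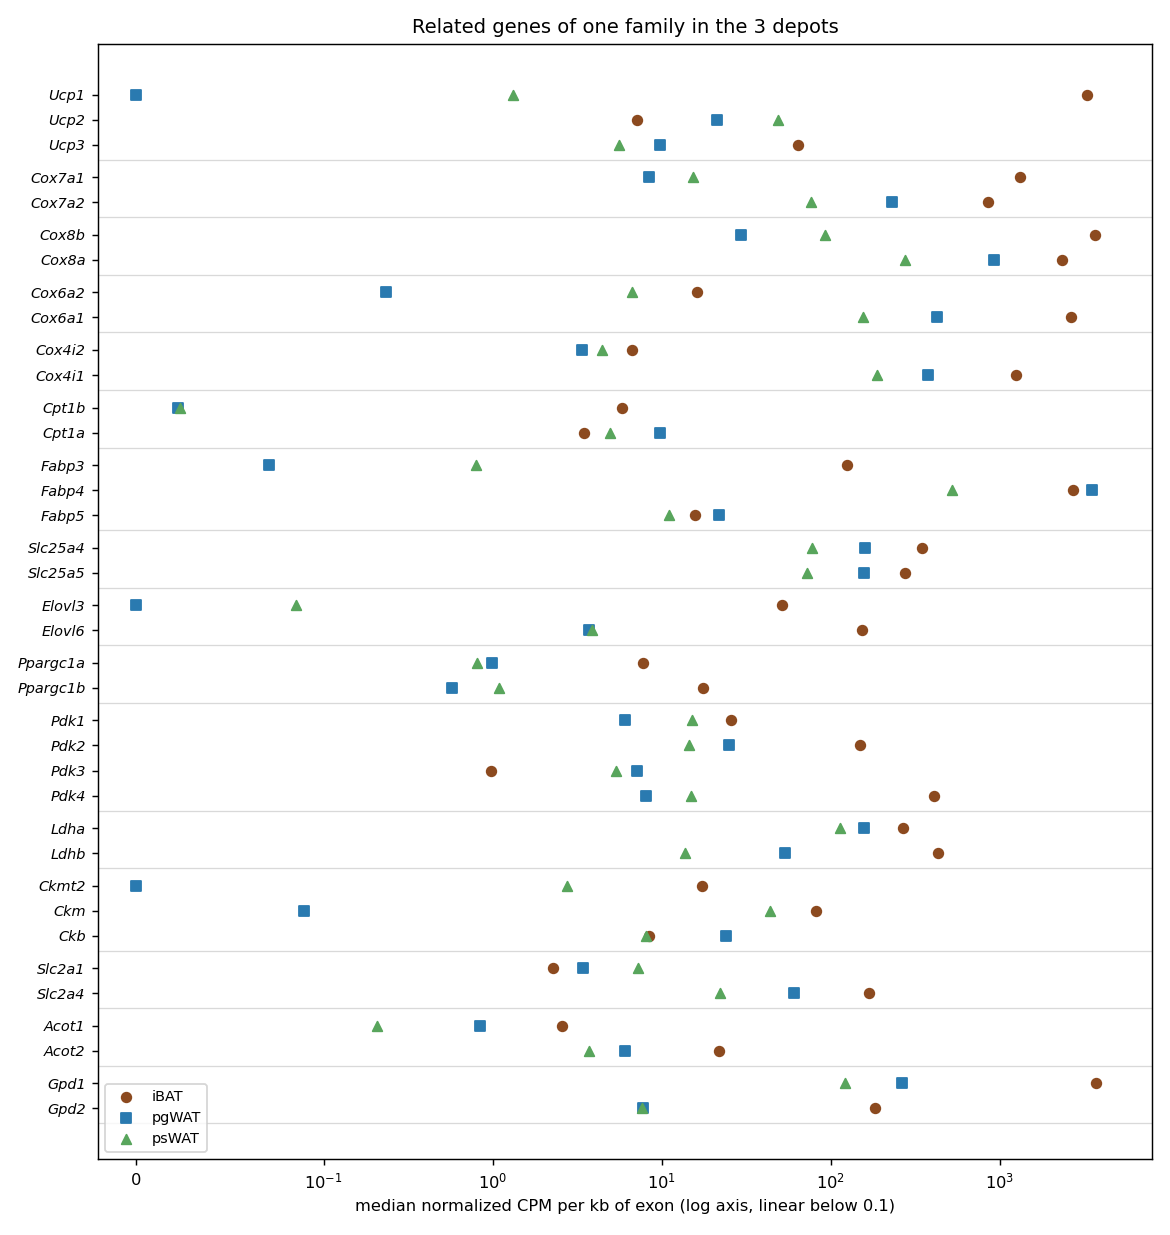
Median normalized CPM per kilobase of exon of paralogs in the 3 depots. The muscle creatine kinase Ckm is shown beside Ckb and Ckmt2.

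Estrogen-related receptors bind a core written AAGGTCA, and the GABP factors, of which Gabpa is on the list of mitochondrial regulators, bind a core written CCGGAAG. The 250 bases before the start of genes in the RefSeq promoter table (GRCm38.p6) were searched for both on both strands. Of 18738 genes tested 12585 have such a promoter (67.2%), too few to compare shares between lists. The estrogen-related receptor core is in 3.93% of them and the GABP core in 13.4%. The 38 genes looked up were picked by hand, mostly from genes of brown fat and mitochondria. Of them 26 have a promoter, and 21 of these hold neither core. Since the genes were picked, their share with a core was not compared with that of all genes. Windows of 4 of the 5 with a core are shown, chosen after their values were seen except Perm1, a muscle regulator of mitochondrial genes that the naming rule gives. Perm1 was at 36.02 to 153.6 nCPM in iBAT (median 66.7), 0 to 1.02 in pgWAT (median 0.173) and 0.423 to 29.2 in psWAT (median 2.92), without overlap, with an edgeR log2FC of 6.02 ± 0.35 over white fat (adjusted p = 8.35e-18), 8.21 ± 0.50 over pgWAT and 3.83 ± 0.40 over psWAT. Acadm, the medium-chain acyl-CoA dehydrogenase, was at 3044 to 5107 nCPM in iBAT (median 4131), 119.2 to 617 in pgWAT (median 472) and 54.5 to 769 in psWAT (median 127.2), with an edgeR log2FC of 3.77 ± 0.21 (adjusted p = 1.18e-18). Slc25a20, the carnitine carrier, was at 680.4 to 1536 nCPM in iBAT (median 1033), 33.9 to 109.6 in pgWAT (median 75.95) and 23.6 to 182.7 in psWAT (median 36.8), with an edgeR log2FC of 3.96 ± 0.17 (adjusted p = 1.12e-21). Letmd1, a mitochondrial inner membrane protein, was at 446 to 1061 nCPM in iBAT (median 867), 28.8 to 55.4 in pgWAT (median 41.7) and 33.7 to 105.95 in psWAT (median 38.8), with an edgeR log2FC of 4.21 ± 0.10 (adjusted p = 4.06e-30). None of the 4 overlapped. Each line gives the strand of the gene 5′ to 3′ with the core, or its reverse complement, in capitals. They lie at chr4:156215713-156215743 (plus strand, 195 bases before the start), chr3:153944874-153944893 (minus, 242 bases), chr9:108662045-108662075 (plus, 72 bases) and chr15:100468932-100468962 (plus, 60 bases). A match is a description of letters and not a bound site. Ucp1, Cox7a1, Cox8b and Dio2 are among those without a core.
Perm1: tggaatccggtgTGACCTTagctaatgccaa
Acadm: gTGACCTTcgggctccggtg
Slc25a20: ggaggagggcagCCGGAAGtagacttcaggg
Letmd1: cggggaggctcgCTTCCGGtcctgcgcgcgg

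Whether the depot difference depends on fasting time was tested over all genes at once, with 5 degrees of freedom. By edgeR 1307 of 18738 genes (6.98%) had an adjusted p under 0.05 (4523 at an unadjusted p under 0.05), 605 against pgWAT alone and 2277 against psWAT alone. The signed log2FC of iBAT over white fat was higher at 22 h than at 0 h in 468 genes and lower in 1052 (1880 and 2949 at an unadjusted p under 0.05). With length offsets the balance turned, with 604 higher and 349 lower. These counts rest on the 2 iBAT libraries at 22 h. Without the 22 h libraries the joint test of edgeR gave 0 genes (2367 at an unadjusted p under 0.05) and that of DESeq2 343, so the tools differ on the earlier times. In edgeR it gave 25 without iBAT 22 h replicate 2 and 2086 without iBAT 22 h replicate 3. Without iBAT 8 h replicate 2, 8 h replicate 3 or 12 h replicate 2 it gave 740, 818 and 2060. With lane as a covariate it gave 5, with animals as a block 493, and without the high-muscle iBAT libraries 0 (365 at an unadjusted p under 0.05, and 0 by DESeq2). That last fit also loses every iBAT library of 8 h and 22 h and covers 4 times, so muscle and fasting time change together in it. By DESeq2 with all libraries the count was 2920.

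The counts at 22 h against 0 h moved as well. Without iBAT 22 h replicate 2 they were 24 higher and 54 lower, and 737 and 2092 without iBAT 22 h replicate 3. Without iBAT 0 h replicate 2 the number lower was 481 and the number higher 0.26 times that with it. The number higher was 304 without pgWAT 0 h replicate 2, 304 without pgWAT 22 h replicate 2, 267 without psWAT 0 h replicate 2 and 1020 without psWAT 22 h replicate 3. The difference between 22 h and 0 h follows gene length. In 4 equal bins of genes from the shortest to the longest transcripts its median log2 value was 0.45, 0.06, −0.30 and −0.78. In single libraries, the bin of longest genes stood −0.98 and −0.74 (log2) from the shortest in iBAT 22 h replicates 2 and 3, against −0.25 to 0.54 in the other 15 iBAT libraries (median 0.31). In pgWAT it stood −0.51 to 0.45 and in psWAT −0.22 to 0.39. The 22 h iBAT libraries also carry the lane numbers L001 and L003, which no white fat library carries. Fasting time, lane and the length trend therefore cannot be told apart in iBAT at 22 h. The part of RNA quality was not tested.

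The 8 genes with the smallest p in the joint test are Ccar1, Tnpo1 (nuclear import), Usp34 (a deubiquitinase), Slc35b2, Srpk2, Smc3 (cohesin), Casd1 (sialic acid acetylation) and Gm7730 (a processed pseudogene). Ccar1, a regulator of cell cycle and apoptosis, was at 12.1 to 86.4 nCPM in iBAT (median 69.1), 56.5 to 80.3 in pgWAT (median 64.7) and 55.3 to 97.4 in psWAT (median 79.3). At 22 h its log2FC over white fat was −2.01 ± 0.27 from that at 0 h by edgeR (adjusted p of the joint test = 1.32e-04). Slc35b2, a sulfate donor carrier of the Golgi, was at 25.2 to 232.1 nCPM in iBAT (median 52.4), 42.9 to 73.6 in pgWAT (median 57.9) and 35.3 to 52.4 in psWAT (median 41.4), with a change of 2.26 ± 0.32 by edgeR (adjusted p of the joint test = 2.00e-04). Of the 8, Slc35b2 and Gm7730 rose relative to white fat and the other 6 fell, the largest fall being −2.48 in Srpk2, a splicing kinase. None of the 8 passed in edgeR without the 22 h libraries, a fit in which no gene at all passed. Of the 34 brown adipocyte genes tested 2 were called in the joint test, against 6.98% of all genes. Pdk4 had an edgeR adjusted p of 0.653 in the joint test. Dio2 had one of 0.0325 in edgeR, with log2FC values of 4.79 at 0 h, 9.89 at 2 h, 5.04 at 8 h, 7.26 at 12 h, 8.34 at 18 h and 5.78 at 22 h.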

How the data were processed

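Polyadenylated RNA of 3 fat depots of 18 mice was sequenced on both ends with a kit that keeps the strand. The authors aligned the reads with TopHat2 2.1.1 to GRCm38.p5 and made the deposited counts with HTSeq 0.9.1, as uniquely aligned reads in the exons of Gencode M16 genes, leaving out reads in more than 1 gene. The table holds 53686 genes, 26 of them named as dates, which were used under those names only. Library totals were 3156101 to 27801717 counts (median 8261096), so 3 counts in a library are 0.152 to 1.26 normalized CPM.

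From these counts, 18738 genes with at least 1.21 CPM (10 counts at the median total) in at least 3 libraries were tested with edgeR 4.0.16 in R 4.3.3: TMM factors (medians 0.732 in iBAT, 1.08 in pgWAT and 1.35 in psWAT), trended dispersion, robust quasi-likelihood F-tests on 18 group means, and Benjamini-Hochberg adjustment over all genes tested. Contrasts averaged the depot differences within fasting times, with pgWAT and psWAT weighted equally, and a joint test with 5 degrees of freedom asked whether the difference varies with time. A group of libraries at 0 leaves no finite fold for 3456 genes, and 1393 of them have such groups in iBAT and in white fat and cannot pass; for those named, counts pooled over libraries were compared with exact 95% intervals. The tests of both tools were checked on simulated counts first, where the joint test of DESeq2 called more unchanged genes than that of edgeR. Of 200 genes changed 4-fold in iBAT at 22 h alone, the joint test called 61 by edgeR and 72 by DESeq2, so it misses many changes. DESeq2 1.42.0, other scalings, filters, covariates and libraries left out were tried as alternatives. Gene coordinates are those of Gencode M21 (GRCm38.p6), and exon length is known for 97.6% of the genes tested.

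Genes were named by a rule: Ucp1 and Cidea; the 12 called genes with the largest difference in each direction, under the conditions given with them and without names of the form Gm or Rik; from each list the most abundant called member and the called member with the largest difference in each direction, and all members of the paralog list; and the 8 genes with the smallest p in the joint test. Not every gene that the rule gives is printed. The 38 lists comprise 25 of pathways and 13 of marker genes. The members of the comparison and the lists were chosen with earlier results of these data known. The same mice gave all depots, so depots are taken as paired by animal. Animals were matched across depots by the fasting time and replicate number in the titles, which is an assumption. Deviations from the group means of depots of an animal had a mean correlation of 0.0257 over 48 pairs (-0.208 to 0.252), against -0.0125 between animals of a fasting time. Replicate libraries had correlations of 0.831 to 0.992 (median 0.967), and none is a copy of another.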

Additional observations from a re-analysis of the deposited data

Results flagged for a closer look

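The difference between iBAT and white fat itself differed between fasting times in 1307 genes by the joint test of edgeR. The signed log2FC of iBAT over white fat was higher at 22 h than at 0 h in 468 genes and lower in 1052 by edgeR, and these counts move widely when either iBAT library at 22 h is left out. With length offsets they were 604 higher and 349 lower, so the balance turned. The changes (log2) of the 8 genes with the smallest p were −2.01 for Ccar1, −1.42 for Tnpo1, −1.92 for Usp34, 2.26 for Slc35b2, −2.48 for Srpk2, −1.81 for Smc3, −1.86 for Casd1 and 2.05 for Gm7730. All 8 were flagged because the depot difference was not the same at both times.

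The left-out library psWAT 12 h replicate 3 has marker sums above those of the other psWAT libraries. Its sum over 10 cerebellar neuron genes was 5740.4 CPM, against 0.527 to 60.01 in the 16 used. Its sum over nerve genes was 3766 CPM, against 148.6 to 930.1. Over 11 mesothelium genes its sum was 1096 CPM, against 1.84 to 352.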

How the results depend on the processing

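The counts of genes higher and lower in iBAT over all times stayed within 1.5 times under every scaling, filter, set of libraries and by DESeq2, except those given here; no cause was tested. With no fold threshold they were 5937 higher and 7443 lower against white fat, 5370 and 7380 against pgWAT, and 6319 higher against psWAT. The lane covariate, which could be fitted only with lanes L001 to L003 taken as one, gave 2451 lower against pgWAT, 2437 lower at 18 h, 1501 higher and 1651 lower at 22 h, 5 with a higher and 7 with a lower log2FC at 22 h than at 0 h, and 5 genes in the joint test. Lane numbers come from the library names, which name no sequencing run, so a lane number may pool libraries of different runs. Leaving out single libraries moved the count lower at 22 h from 2685 to 4421.

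The dependence on fasting time is the least stable result. The joint test of edgeR, 1307 genes, gave 493 with animals as a replicate block, 739 without the filter, 846 with length offsets, 2080 without the lymphocyte- and reproductive-tract-rich libraries, 605 against pgWAT and 2277 against psWAT, and 2920 by DESeq2. It gave 0 without the 22 h libraries, without the high-muscle iBAT libraries and without the iBAT libraries of lanes L001 to L004. The counts were 2367, 365 and 907 at an unadjusted p under 0.05, and 343, 0 and 9 by DESeq2. Each of these fits leaves out the iBAT libraries of 22 h, so they are not separate changes. Single libraries moved the count of the joint test from 25 to 2086. The number with a higher log2FC at 22 h than at 0 h, 468, was 750 with upper-quartile factors, 226 without the filter and 852 by DESeq2 (24 to 1020 without single libraries); the number lower, 1052, was 622 without the filter and 349 with length offsets (54 to 2092). With length offsets 604 were higher and 349 lower, so the balance turned. Of the calls in the main fit 30.8% were higher, and 47.1% with upper-quartile factors. The block changed no other count of calls past 1.5 times.

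Of 6692 recomputed values of the genes named for a depot difference, 6533 kept direction and side of the threshold, 120 lost the call, 32 gained it and 7 turned. Some losses, such as those of Upk1b and Gdf15 without single psWAT libraries, are of fits with groups at 0 on both sides, which cannot pass. The lane covariate took the call from 17 genes: Ucp1 (13.91), Elovl3 (9.24), Upk1b (−7.65), Col6a5 (−6.40), Hoxc9 (−7.47), Tmem26 (−5.54), Cfd (−0.96), Zic1 (6.30), Uqcrc1 (7.22), Abcd2 (−0.84), Bdh1 (−2.37), Ckm (4.73), Ckmt2 (7.10), Adra2a (−2.22), Lcn2 (−3.92), Cox6a2 (3.41) and Cox4i2 (0.73). Of these Ucp1, Elovl3, Upk1b, Hoxc9, Tmem26, Zic1, Uqcrc1 and Ckmt2 have a group at 0, which leaves no finite fold. For them that fit cannot decide on lane. All 7 turns are of Fabp5 (log2FC −0.051): 0.14 with the block, 0.060 with the lane covariate, 0.11 with length offsets, 0.023 without the high-muscle iBAT libraries, 0.0052 without iBAT 0 h replicate 2, 0.017 without iBAT 12 h replicate 2 and 0.023 without pgWAT 22 h replicate 1, against −0.084 without pgWAT 22 h replicate 2. RLE factors moved the median log2FC of all genes by −0.13 at 12 h, −0.11 at 2 h and −0.10 against psWAT, and upper-quartile factors by −0.13 at 8 h, −0.11 against pgWAT and 0.14 at 22 h against 0 h. The alternatives by marker sums and the additive terms were chosen after seeing the data. Where a left-out library leaves 1 iBAT or psWAT library at a time, that library is taken to vary like the other groups.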

Other observations

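The left-out library iBAT 22 h replicate 1 had an erythroid sum of 1478 CPM, against 76.5 to 661 in the iBAT libraries used, and a sum over mitochondrial genes of 77570.2 CPM, against 46966 to 353997. On the first principal component (42.8% of the variance) the psWAT libraries ran from 11.8 to 200.7. On the third (5.94%) iBAT 22 h replicates 2 and 3 were at -161.6 and -73.01. Pancreatic acinar genes summed to 529 CPM in psWAT 12 h replicate 1.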
